A study of Mus musculus with 24 samples.

Results

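H3K27me3 was compared between Sertoli cells, the supporting cells of the fetal testis, and pregranulosa cells, their counterparts in the fetal ovary, at E13.5. Overlapping peaks within each cell type's list were joined into regions, and regions of chromosomes 1 to 19 were kept. This gave 13105 regions in Sertoli cells and 10939 in pregranulosa cells, or 24044 of the 207961 regions in the 8 lists of the study over all chromosomes. Regions of the 2 lists that overlapped by at least 1 bp were chained into 15604 loci, and each locus was classed as Sertoli-only, shared or pregranulosa-only.

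The study profiled H3, H3K4me3 and H3K27me3 by ChIP-seq in 24 samples of sorted mouse gonadal cells, of which 4 gave the 2 lists compared here. All embryos came from a C57BL/6 x CD1 background. Sertoli cells were XY cells sorted by FACS from Sox9-CFP gonads at E13.5. The pregranulosa cells, called granulosa cells in the labels, were XX cells sorted from TESM-CFP gonads at E13.5. The study describes this reporter as a mutant of TESCO, a testis enhancer element of Sox9, so these cells were gated on a Sox9 enhancer construct and not on a granulosa gene. Progenitor cells of both sexes at E10.5 were sorted from SF1-eGFP gonads and are used here only as the starting state. The labels name no mutation beyond the reporters, and the cells of several gonads were pooled in each sample. Each list merges 2 replicates, so no spread between replicates can be given and no test between the cell types was possible. Intervals in brackets are exact (Clopper-Pearson) 95% binomial intervals and cover counting error only.

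H3K27me3 is placed on histone H3 by Polycomb repressive complex 2 and marks genes that are kept silent in a cell lineage. H3K4me3 marks the starts of active or poised genes, and a promoter that carries both marks is called bivalent. In the gonad, supporting cell precursors can become Sertoli cells under the control of SRY and SOX9, or pregranulosa cells under the control of WNT4, RSPO1 and FOXL2, and each fate represses the other.

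The bases just upstream of 6 gene starts, 3 from each pathway, are shown. All but Lef1 carry the main contrast at the start, and Lef1 differs in the extent of the mark. Each run covers the 250 bp before the annotated start on mm9, is printed 5′ to 3′ in the gene's reading direction, and has its CpG dinucleotides in capitals. Promoters rich in CpG are the usual targets of Polycomb in mammals. The first 3 belong to the testis pathway.
Sox9, chr11:112643288-112643537 (+): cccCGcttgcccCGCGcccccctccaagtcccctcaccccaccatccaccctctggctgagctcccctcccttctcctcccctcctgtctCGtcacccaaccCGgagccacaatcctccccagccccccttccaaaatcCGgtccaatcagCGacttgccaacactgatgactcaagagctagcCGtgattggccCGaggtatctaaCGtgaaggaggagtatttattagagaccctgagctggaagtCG
Fgf9, chr14:58689134-58689383 (+): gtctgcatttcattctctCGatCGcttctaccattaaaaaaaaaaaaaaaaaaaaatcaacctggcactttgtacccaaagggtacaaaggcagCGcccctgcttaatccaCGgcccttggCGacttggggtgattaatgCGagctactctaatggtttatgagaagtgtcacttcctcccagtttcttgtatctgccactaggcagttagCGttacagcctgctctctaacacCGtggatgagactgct
Dmrt1, chr19:25579858-25580107 (+): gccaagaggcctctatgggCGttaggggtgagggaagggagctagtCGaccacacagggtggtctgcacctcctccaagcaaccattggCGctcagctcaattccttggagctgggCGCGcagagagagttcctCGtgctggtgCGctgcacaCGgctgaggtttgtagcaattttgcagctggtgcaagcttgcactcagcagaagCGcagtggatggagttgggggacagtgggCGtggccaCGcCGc
The next 3 belong to the ovary pathway and to Wnt signalling.
Wnt4, chr4:136833154-136833403 (+): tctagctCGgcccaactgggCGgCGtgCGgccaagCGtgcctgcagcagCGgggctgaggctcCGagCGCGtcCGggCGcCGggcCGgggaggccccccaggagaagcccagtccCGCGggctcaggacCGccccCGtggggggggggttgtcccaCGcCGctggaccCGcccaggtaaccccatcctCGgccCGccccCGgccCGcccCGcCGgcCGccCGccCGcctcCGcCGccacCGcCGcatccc
Rspo1, chr4:124663424-124663673 (+): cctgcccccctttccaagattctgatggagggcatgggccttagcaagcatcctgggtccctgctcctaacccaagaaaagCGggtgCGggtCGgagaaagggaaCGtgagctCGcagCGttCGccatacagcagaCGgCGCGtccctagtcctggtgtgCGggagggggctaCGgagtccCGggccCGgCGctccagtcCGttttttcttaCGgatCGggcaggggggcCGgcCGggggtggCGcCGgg
Lef1, chr3:130813139-130813388 (+): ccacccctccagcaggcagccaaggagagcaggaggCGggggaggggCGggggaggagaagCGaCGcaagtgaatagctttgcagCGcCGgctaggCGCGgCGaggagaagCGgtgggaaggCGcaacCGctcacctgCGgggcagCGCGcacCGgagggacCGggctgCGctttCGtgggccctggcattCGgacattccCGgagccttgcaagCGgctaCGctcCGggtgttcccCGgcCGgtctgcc
The 3 testis stretches held 11, 8 and 12 CpG in the order printed, and the 3 ovary stretches held 33, 22 and 26. These genes were picked by name, and promoters as a whole went the other way. Over gene starts ± 2 kb the median ratio of observed to expected CpG was 0.288 for promoters marked in Sertoli cells only. It was 0.451 for those marked in pregranulosa cells only. All 250 bp of the Sox9, Fgf9 and Dmrt1 stretches lay in H3K27me3 regions in pregranulosa cells, and 0 bp did in Sertoli cells. The reverse held for Wnt4 and Rspo1, with 250 bp in Sertoli cells and 0 bp in pregranulosa cells. The Lef1 stretch was marked over its 250 bp in both cell types. All 6 stretches were marked over 250 bp in XY and in XX progenitor cells. H3K4me3 covered the 250 bp in both E13.5 cell types for every stretch except that of Rspo1 in Sertoli cells, where it covered 189 bp.

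Sox9 (chr11:112643538-112649074), which encodes the transcription factor at the head of the Sertoli programme, lacked H3K27me3 at its promoter in Sertoli cells and was fully covered in pregranulosa cells. The promoter was taken as the gene start ± 2 kb. In pregranulosa cells a region of 26544 bp ran from 17013 bp upstream of the start to 9531 bp downstream of it. In Sertoli cells the nearest region began 10882 bp downstream of the start and was 54375 bp wide, so the gene itself was free of the mark and the sequence beyond it was not. In XY and XX progenitor cells the promoter lay in regions of 16626 bp and 15336 bp. H3K4me3 spanned the whole promoter window in both cell types. Sertoli cells also had H3K4me3 from 13561 to 10074 bp upstream, where pregranulosa cells had a region only from 10150 to 8067 bp upstream.

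Fgf9 (chr14:58689384-58731174), a growth factor that sustains Sox9 and opposes Wnt4, had no H3K27me3 over the gene and 10 kb on either side in Sertoli cells. Pregranulosa cells had 29339 bp there, in regions of 15874 bp and 13465 bp, and the first of these held the gene start. Dmrt1 (chr19:25580108-25678819), a transcription factor that keeps male identity in the gonad, had 61089 bp in pregranulosa cells against 17688 bp in Sertoli cells. The Sertoli bases of Dmrt1 all lay more than 60 kb downstream of its start. At both genes H3K4me3 covered similar lengths of the promoter window in the 2 cell types, 2502 bp in Sertoli and 2313 bp in pregranulosa cells for Fgf9, and 3032 bp and 3148 bp for Dmrt1.

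Wnt4 (chr4:136833404-136855641), the Wnt ligand that drives ovarian fate, was the mirror image. A Sertoli region of 11389 bp held its start, and no pregranulosa region lay within 60 kb of it. Its H3K4me3 region at the start was 2374 bp wide in Sertoli cells and 9098 bp wide in pregranulosa cells. Rspo1 (chr4:124663674-124686343), a secreted enhancer of Wnt signalling, had 36007 bp of H3K27me3 over the gene and 10 kb on either side in Sertoli cells and 0 bp in pregranulosa cells. The Sertoli locus at its start was 32622 bp wide, and H3K4me3 over the start ran for 7405 bp in pregranulosa cells but was split into stretches of 1292 bp and 1352 bp in Sertoli cells.

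Lef1 (chr3:130813389-130927274), which encodes a transcription factor that partners beta-catenin, carried H3K27me3 at its promoter in both cell types and so counted as shared. The extent differed. A Sertoli region of 23607 bp ran from 11712 bp upstream to 11895 bp downstream of the start, and 3 further Sertoli regions, of 5001, 5001 and 7597 bp, lay inside the gene. In pregranulosa cells the region at the start was 7523 bp wide and ended 1635 bp into the gene, with no further region in the next 60 kb. In the XY and XX progenitor cells it was 14357 bp and 14944 bp wide. The map of called regions shows these 6 loci side by side.

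**Figure D1:**
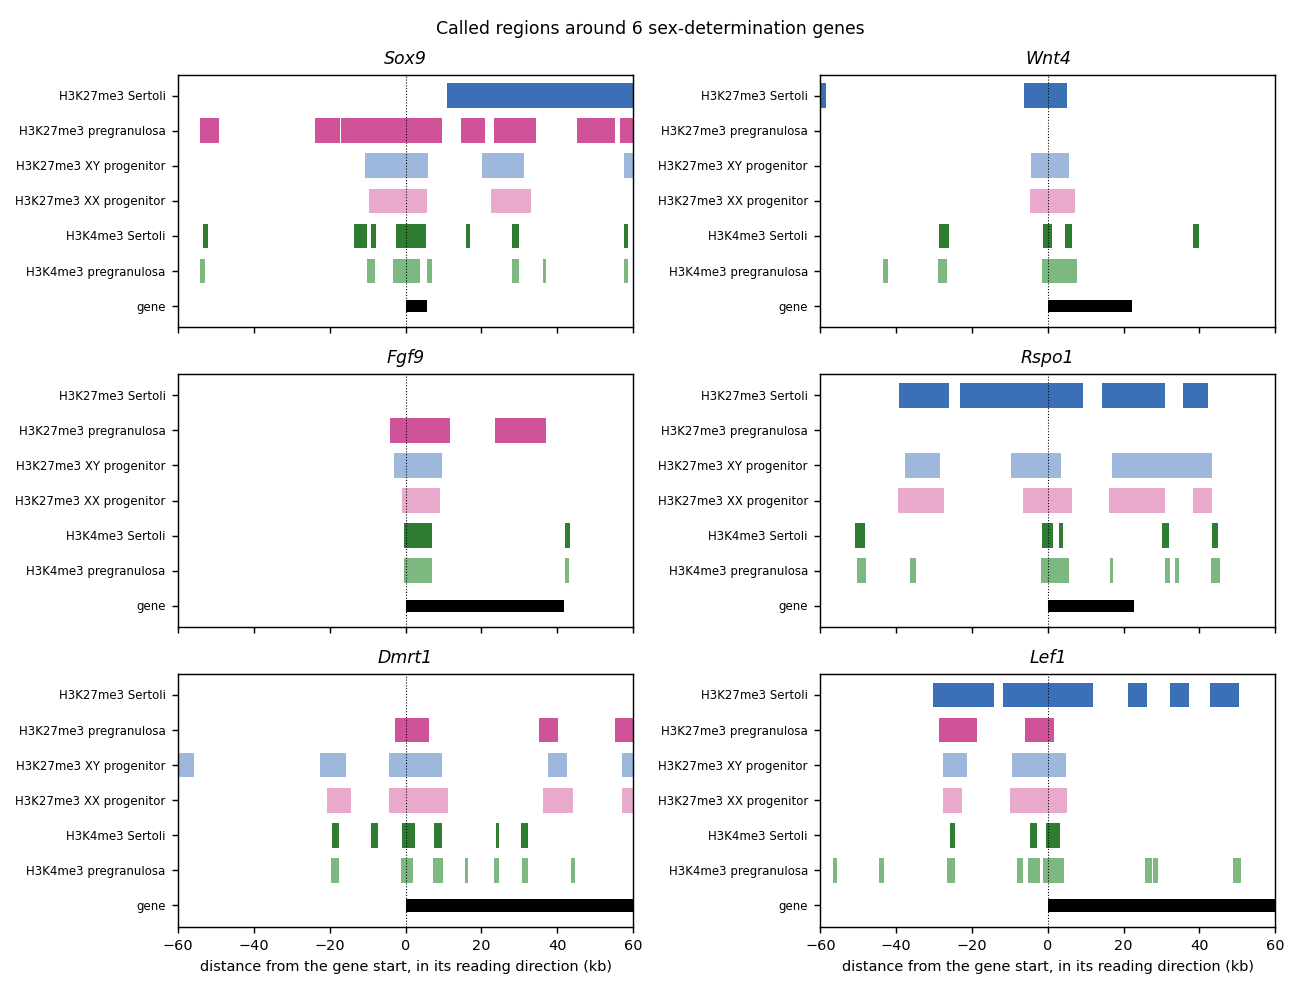
Called regions of H3K27me3 in the 4 populations and of H3K4me3 in the E13.5 cell types, within 60 kb of the starts of Sox9, Fgf9, Dmrt1, Wnt4, Rspo1 and Lef1. The x axis gives the distance from the gene start in kb, each bar is a region, and black bars are the genes. H3K27me3 at the start is present only in the pregranulosa row among the E13.5 rows for the 3 testis genes, only in the Sertoli row for Wnt4 and Rspo1, and in both for Lef1, where the Sertoli region is wider.

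The same contrast was read over a list of 22 testis-determining genes and a list of 17 ovary-determining genes. Both lists were made by hand with earlier results of these data known. The study had itself named many of the ovary genes, among them Wnt4, Rspo1, Bmp2, Lhx9 and Lef1, for high H3K27me3 in Sertoli cells. The counts for these lists therefore describe known genes and are no separate support for the contrast. Over all 21418 autosomal protein-coding genes, 5.11% of promoters carried H3K27me3 in Sertoli and not in pregranulosa cells, 2.96% the reverse, and 19.1% had it in both. Of the 22 testis-determining genes, 10 were marked in pregranulosa cells only, 0 in Sertoli cells only, 4 in both and 8 in neither. The 10 were Sox9, Fgf9, Dmrt1, the SOX9 relatives Sox8 and Sox10, the ligand Dhh, the growth arrest gene Gadd45g, the inhibin subunit gene Inhbb, the anti-Müllerian hormone gene Amh and the tight junction gene Cldn11. The whole promoter window was covered in pregranulosa cells at Sox9, Fgf9, Dmrt1, Sox8, Sox10 and Dhh. The mark reached only 725 bp into the window of Amh, 627 bp into that of Gadd45g and 2209 bp into that of Inhbb, and it did not reach the start itself at Amh or Gadd45g. Over the gene and 10 kb on either side Gadd45g had 7661 bp in pregranulosa and 7772 bp in Sertoli cells, so only the window set it apart.

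Of the 17 ovary-determining genes, 5 were marked in Sertoli cells only, 0 only in pregranulosa cells, 11 in both and 1 in neither. The 5 were Wnt4, Rspo1, the BMP ligand Bmp2, the homeobox gene Lhx9 and the Wnt target and inhibitor Axin2. Bmp2, Lhx9 and Axin2 had 15336, 18018 and 22553 bp of H3K27me3 over the gene and 10 kb on either side in Sertoli cells, against 0, 0 and 1777 bp in pregranulosa cells. The gene in neither class was Ctnnb1, which encodes beta-catenin. The annotated start of Ctnnb1 carried no H3K4me3 in any of the 4 populations either, so the window may not hold the start that these cells use.

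Of the 11 ovary genes marked in both cell types, 9 had the mark over more bases of the gene and 10 kb on either side in Sertoli cells. Runx1, a granulosa cell transcription factor, had 91507 bp in Sertoli cells and 30989 bp in pregranulosa cells, and its annotated start too lacked H3K4me3 throughout. Fst, which encodes the activin antagonist follistatin, had its whole window covered in Sertoli cells but only 1284 bp, not including the start, in pregranulosa cells. Irx3, a homeobox gene of the ovary, had 21848 bp against 12665 bp. Foxl2, the forkhead gene that maintains granulosa identity, differed least of the 9, with 22520 bp in Sertoli cells and 22446 bp in pregranulosa cells. The Sertoli value is the whole stretch measured, so the measure was at its limit there. The regions themselves were 40986 and 35320 bp wide. The study reports that the start and body of Foxl2 lose the mark in pregranulosa cells. The lists cannot show such a difference in signal within a covered stretch. The 2 that went the other way were the Wnt pathway receptor genes Lgr5, with 6367 bp in Sertoli and 7750 bp in pregranulosa cells, and Fzd1, with 6268 and 7518 bp. Over the 17 ovary genes the Sertoli cover exceeded the pregranulosa cover at 14, the reverse held at 2, and the median difference was 7310 bp. Over the 22 testis genes the pregranulosa cover was larger at 10 and the Sertoli cover at 5, with 7 equal. Over 21281 distinct gene symbols the Sertoli cover was larger at 5795 and the pregranulosa cover at 2984. A difference of 5 kb or more in favour of Sertoli cells was found at 11 of the 17 ovary genes and at 1 of the 22 testis genes, and one in favour of pregranulosa cells at 0 and 9. Among the 9 testis genes, Amh, Inhbb and Cldn11 only just passed this limit, with a single pregranulosa region of 5001 bp each. Over all symbols such differences numbered 2751 in favour of Sertoli and 1243 in favour of pregranulosa cells. The 1 testis gene with such an excess in Sertoli cells was Fgfr2, whose annotation spans 3009069 bp.

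**Figure D2:**
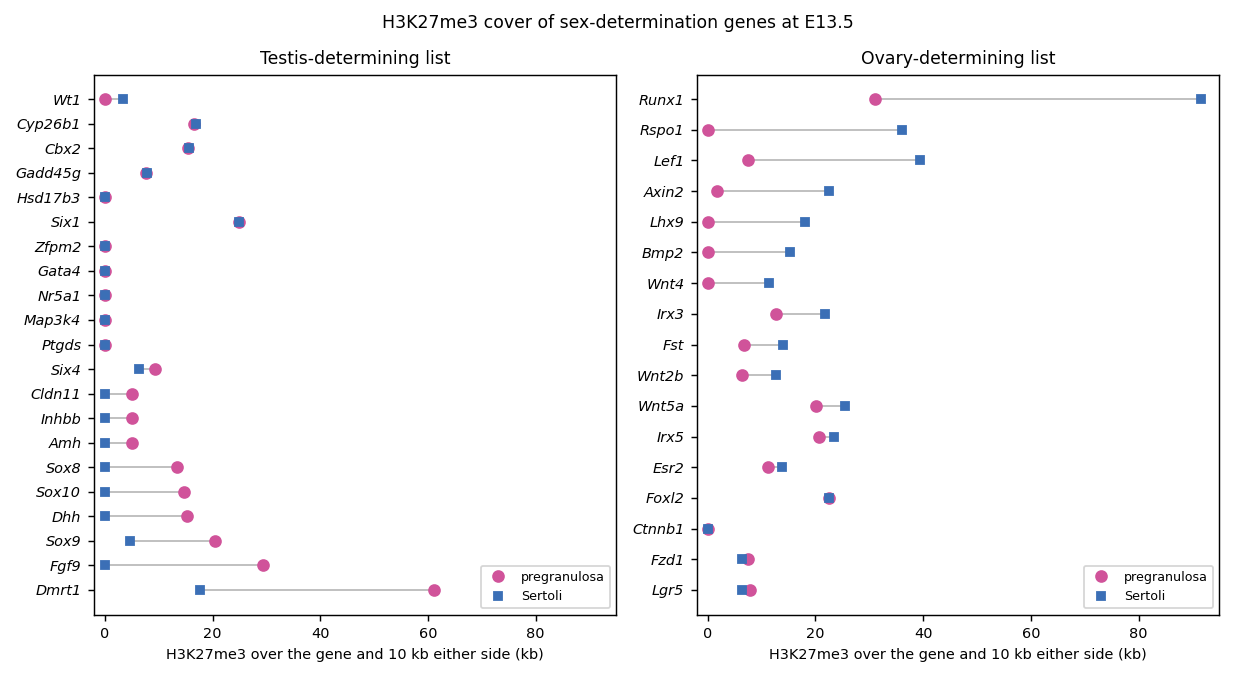
H3K27me3 cover in kb (x axis) of each gene with 10 kb on either side, for the testis-determining list (left) and the ovary-determining list (right) in Sertoli cells (blue squares) and pregranulosa cells (pink circles). Fgfr2, annotated over 3009069 bp, is left out. Pregranulosa points lie to the right at 10 of the 21 testis genes drawn, with Dmrt1 furthest apart at 61089 against 17688 bp, and Sertoli points lie to the right at 14 of 17 ovary genes.

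At E10.5 both progenitors carried H3K27me3 at most of these promoters. Of the 10 testis genes marked in pregranulosa cells only, 8 had been marked in both progenitors, Cldn11 in the XX progenitor alone and Amh in neither. Of all promoters marked in pregranulosa cells only, 55.3% had been marked in both progenitors. All 5 ovary genes marked in Sertoli cells only had been marked in both progenitors, against 21.4% of all promoters marked in Sertoli cells only. Another 4 testis genes, Gata4, Nr5a1, Wt1 and Zfpm2, which encode transcription factors needed in the early gonad of either sex, were marked in both progenitors and in neither E13.5 cell type. Ptgds, Map3k4, Hsd17b3 and Fgfr2 were marked at their annotated starts in none of the 4 populations. Fgfr2 is annotated over 3009069 bp, so its window may not hold the start that these cells use.

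The marks at marker genes of the labelled cell types were also read. These markers include Sox9, Fgf9, Dmrt1, Wnt4, Rspo1 and Lef1 from the contrast above, so their H3K27me3 is no separate check of the labels. Of 8 Sertoli markers (Sox9, Amh, Dmrt1, Sox8, Ptgds, Dhh, Fgf9 and Cldn11), all 8 had H3K4me3 and 0 had H3K27me3 at the promoter in Sertoli cells. In pregranulosa cells 7 of the 8 had H3K4me3 and 7 had H3K27me3, and Ptgds had neither. Of 7 pregranulosa markers (Foxl2, Wnt4, Rspo1, Fst, Lef1, Irx3 and Bmp2), all 7 had H3K4me3 in both cell types. H3K27me3 was present at all 7 in Sertoli cells and at 4 in pregranulosa cells, which leaves Wnt4, Rspo1 and Bmp2 with H3K4me3 alone there. Markers of other cells of the gonad with H3K4me3 and without H3K27me3 numbered 3 of 17 for germ cells, 1 of 15 for endothelium, 1 of 13 for blood and 3 of 15 for interstitial and Leydig cells in Sertoli cells. The counts in pregranulosa cells were 4, 2, 1 and 5. This state is common among the 21418 promoters of all genes. In Sertoli cells it held at 9379 promoters marked in neither cell type and at 538 marked in pregranulosa cells only. In pregranulosa cells it held at 9476 promoters marked in neither and at 689 marked in Sertoli cells only. Some of these markers had H3K4me3 in 1 of the 2 cell types only, in both directions. It was listed in pregranulosa cells only at the Leydig cell genes Cyp17a1 and Lhcgr. The same held for the germ cell genes Nanog and Stra8, the endothelial gene Cdh5 and the blood gene Lyl1. It was listed in Sertoli cells only at the germ cell genes Nanos2, Pou5f1 and Sycp3 and the blood genes Csf1r and Gfi1b. The part of other cells in the lists was not tested.

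Genes that Sertoli and pregranulosa cells express differently were examined next, because the lists above are short. The study gives a Sertoli-specific and a pregranulosa-specific gene list from an earlier microarray experiment on sorted supporting cells, so the lists do not rest on the ChIP-seq libraries. Of 1407 Sertoli-specific genes 1326 were autosomal protein-coding genes of the annotation, and of 1163 pregranulosa-specific genes 1071 were. H3K27me3 lay at the promoter in pregranulosa cells only for 183 Sertoli-specific genes, or 13.8% (11.99 to 15.8), and in Sertoli cells only for 21, or 1.58% (0.983 to 2.41). For pregranulosa-specific genes the order turned, with 113 or 10.6% (8.77 to 12.5) in Sertoli cells only and 23 or 2.15% (1.37 to 3.21) in pregranulosa cells only. The shares over all genes were 2.96% and 5.11%. Both cell types carried the mark at 152 Sertoli-specific genes (11.5%) and 186 pregranulosa-specific genes (17.4%), against 19.1% of all genes. The largest group in both lists had no H3K27me3 in either cell type, 970 genes (73.2%) and 749 genes (69.9%), against 72.8% of all genes.

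Among the Sertoli-specific genes with the widest pregranulosa loci were Tox, an HMG-box gene whose start lay in a pregranulosa-only locus of 55097 bp, and Prkce, which encodes protein kinase C epsilon, in one of 44414 bp. Socs2, a suppressor of cytokine signalling, lay in one of 29873 bp. Lmo4, which encodes a LIM-only cofactor, and Znrf3, which encodes a ubiquitin ligase that removes Wnt receptors from the cell surface, had their whole windows covered in pregranulosa cells. Lmo4 had 35903 bp over the gene and 10 kb on either side in pregranulosa cells against 7927 bp in Sertoli cells, and Znrf3 had 32033 bp against 5215 bp. Tagln2 and Slc30a1, a cytoskeletal and a zinc transporter gene, had promoters marked in pregranulosa cells only although the windows lay in wide shared loci of 80977 and 78556 bp. Among the pregranulosa-specific genes the widest Sertoli loci held Cdkn1c, a cell cycle inhibitor gene in a shared locus of 91835 bp, Ano1, a chloride channel gene, Timp2, an inhibitor of metalloproteinases, Hoxc4, Rspo1 and the chromatin remodeller gene Chd9. Timp2 had 47372 bp and the adhesion gene Parvb 57076 bp over the gene and 10 kb on either side in Sertoli cells, and both had 0 bp in pregranulosa cells.

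Genes that went against the direction of their list were fewer. The 21 Sertoli-specific genes with H3K27me3 in Sertoli cells only included Islr and Jakmip2, each with the whole window covered, and Kirrel, Mxi1 and Nomo1, where it reached 1658, 1621 and 1510 bp into the window without covering the start. The 23 pregranulosa-specific genes marked in pregranulosa cells only included the kinase gene Plk2, the RNA-binding protein gene Khdrbs3 and Phlda1, each with the whole window covered in pregranulosa cells.

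H3K4me3 was usually present on the side that carried H3K27me3. At the 183 Sertoli-specific genes marked in pregranulosa cells only, H3K4me3 was listed at 180 in Sertoli and at 177 in pregranulosa cells. It covered at least 500 bp more of the window in Sertoli cells at 53 and in pregranulosa cells at 10. Over all promoters marked in pregranulosa cells only, H3K4me3 was listed at 85.0% in Sertoli and 85.6% in pregranulosa cells. There it was wider by 500 bp or more at 15.3% in Sertoli and 11.7% in pregranulosa cells. At the 113 pregranulosa-specific genes marked in Sertoli cells only, it was listed at 104 in Sertoli and 110 in pregranulosa cells. It was wider by 500 bp or more at 1 and 56. Over all promoters marked in Sertoli cells only, H3K4me3 was listed at 59.1% in Sertoli and 63.0% in pregranulosa cells. There it was wider by 500 bp or more at 2.93% in Sertoli and 25.1% in pregranulosa cells. Over promoters with H3K27me3 in neither cell type H3K4me3 was wider in Sertoli cells at 4.04% and in pregranulosa cells at 15.1%, so the H3K4me3 lists themselves differed in width.

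The lists were then split by their state at E10.5. Of the 1326 Sertoli-specific genes 320 had H3K27me3 in both progenitors and 944 in neither, and of the 1071 pregranulosa-specific genes 263 and 739 did. At E13.5, 119 of the 320 Sertoli-specific genes (37.2%, 31.9 to 42.7) kept it in pregranulosa cells only, 5 in Sertoli cells only, 128 in both and 68 in neither. Of the 263 pregranulosa-specific genes, 41 (15.6%, 11.4 to 20.5) kept it in Sertoli cells only, 13 only in pregranulosa cells, 153 in both and 56 in neither. Over all 4562 genes marked in both progenitors, 7.67% were marked in pregranulosa cells only and 5.13% in Sertoli cells only at E13.5. Among genes marked in neither progenitor, 55 of 739 pregranulosa-specific genes (7.44%, 5.66 to 9.58) had H3K27me3 in Sertoli cells only at E13.5, and 49 of 944 Sertoli-specific genes (5.19%, 3.86 to 6.80) in pregranulosa cells only. Over all genes of that kind the shares were 4.38% and 1.46%.

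Signalling pathways were read by the roles of their members. For comparison, 5.11% of all promoters were classed as Sertoli-only, 2.96% as pregranulosa-only and 19.1% as both. All but 1 of the 19 Wnt ligand genes carried H3K27me3 in Sertoli cells, and 16 carried it in both cell types. The 2 ligands marked in Sertoli cells only were Wnt4 and Wnt5b, and Wnt6 was unmarked. Of 22 receptors and potentiators, Rspo1 and the Frizzled receptor gene Fzd2 were marked in Sertoli cells only, Fzd5 and Fzd9 in pregranulosa cells only, and 12 in both. Of 17 transducers and targets, Axin2, the beta-catenin partners Tcf7 and Tcf7l1 and the Wnt target Sp5 were marked in Sertoli cells only. Nkd2, a feedback inhibitor, and Znrf3 were marked in pregranulosa cells only. The start of Sp5 lay in a Sertoli-only locus of 31750 bp. Of 13 secreted Wnt antagonist genes, 12 carried the mark in both cell types and none in 1 cell type only. The share marked in both lay above 19.1% for ligands (60.4 to 96.6), receptors and potentiators (32.2 to 75.6) and antagonists (64.0 to 99.8). Their intervals for 1 cell type only included the shares of all promoters. For transducers and targets the Sertoli-only share, 23.5% (6.81 to 49.9), lay above 5.11%. Their pregranulosa-only interval, 1.46 to 36.4, included 2.96%.

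Of 28 FGF pathway genes, 4 were marked in pregranulosa cells only and 0 in Sertoli cells only, against 2.96% and 5.11% of all promoters. The 4 genes were Fgf9 and the feedback inhibitors Spry2, Spry4 and Dusp6. Dusp6, a phosphatase acting on ERK, had 13974 bp over the gene and 10 kb on either side in pregranulosa cells and 0 bp in Sertoli cells, and was marked in neither progenitor. In the hedgehog pathway the ligand gene Dhh was marked in pregranulosa cells only, and the coreceptor genes Boc and Gas1 in Sertoli cells only. Of 36 BMP and activin genes, Bmp2 was marked in Sertoli cells only, and Inhbb, Amh and the decoy receptor gene Bambi in pregranulosa cells only. In the Notch pathway the receptor gene Notch1 was marked in Sertoli cells only and the ligand gene Jag1 in pregranulosa cells only, with 33826 bp against 0 bp over the gene and 10 kb on either side. The annotated start of Notch1 had no H3K4me3 in pregranulosa cells or the XY progenitor. In retinoic acid metabolism the reductase gene Dhrs3 was marked in Sertoli cells only and the receptor gene Rxra in pregranulosa cells only. Intervals for 1 cell type only in the hedgehog, BMP and activin, Notch and retinoic acid lists all included the shares of all promoters. Cyp26b1, which encodes the enzyme that degrades retinoic acid in the fetal testis, was covered over its whole window in both cell types. The annotated start of Cyp26b1 had no H3K4me3 in any of the 4 populations, so the window may not hold the start that these cells use.

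Genes of other lineages and cell types, and Polycomb genes themselves, were read in 8 further lists. Of 34 transcription factor genes of neural, muscle and endoderm lineages, 33 carried H3K27me3 in both cell types, and the muscle factor gene Myog in Sertoli cells only. All 39 Hox genes carried it in Sertoli cells, and in pregranulosa cells 36 did. The 3 exceptions, Hoxc4, Hoxc5 and Hoxd3, had the whole window covered in Sertoli cells and 0 bp in pregranulosa cells, although each lay in a shared locus. Of 17 germ cell genes, 7 were marked in both cell types and the oocyte and primordial germ cell gene Dppa3 in Sertoli cells only. Of 13 blood genes, 5 were marked in both and the myeloid genes Csf1r and Itgam in Sertoli cells only. Among 15 interstitial and Leydig genes, 9 were marked in both and the luteinising hormone receptor gene Lhcgr in Sertoli cells only. All 8 of the 15 endothelial genes that were marked were marked in both cell types, as were 2 of 15 steroidogenic genes. Of 18 Polycomb genes, those marked in both included Cbx2, Cbx8 and Bmi1, and Phc2 was marked in Sertoli cells only. Genes marked in neither cell type numbered 9 for germ cells, 6 for blood, 5 for interstitial and Leydig cells, 7 for endothelium, 13 for steroidogenesis and 13 for Polycomb. Across these 8 lists 0 genes were marked in pregranulosa cells only, where 2.96% of all promoters were, and nothing particular to the lists is read from that count. Short lists give wide intervals, and 0 of 39 Hox genes allows a share of up to 9.03%.

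**Figure D3:**
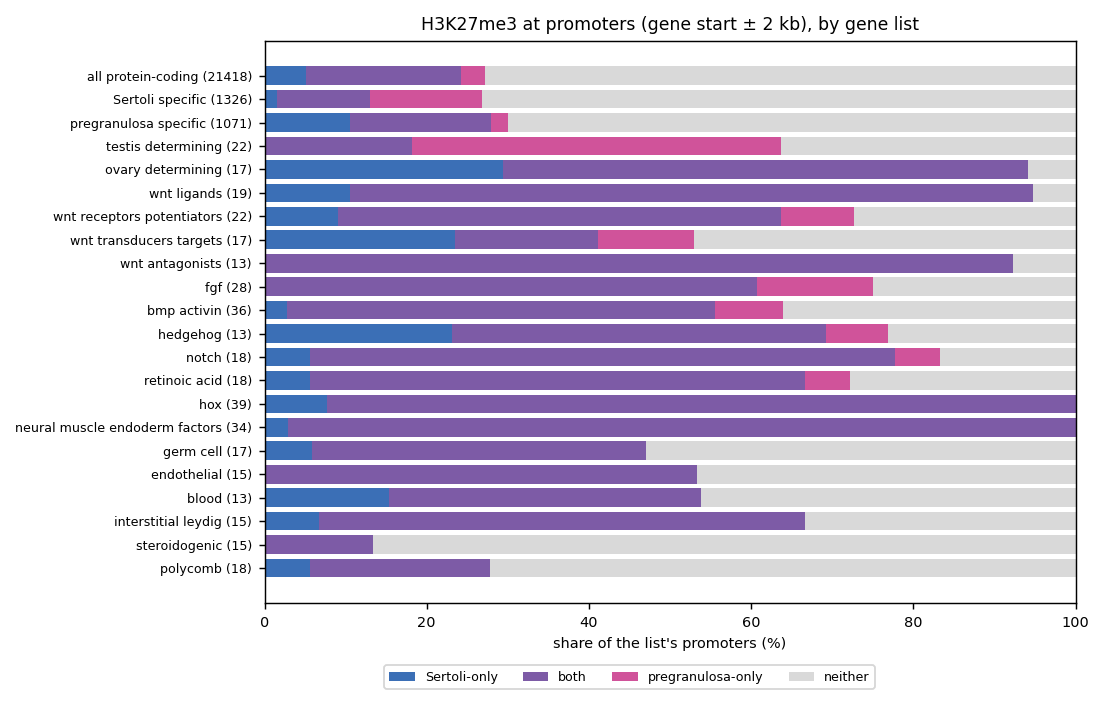
Share of promoters (x axis, percent) with H3K27me3 in Sertoli cells only (blue), both (purple), pregranulosa cells only (pink) or neither (grey), for all genes, the sex-specific lists and 19 pathway and lineage lists, with the number of genes in brackets. Blue gives 29.4% of the ovary-determining list and pink 45.5% of the testis-determining list, while 92.3% of the Hox list is purple.

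Over the genome, shared loci outnumbered those of either cell type. Of the 15604 loci, 7359 (47.2%) were shared, 5336 (34.2%) were Sertoli-only and 2909 (18.6%) were pregranulosa-only. A pregranulosa region met 59.3% (58.4 to 60.1) of Sertoli regions, and a Sertoli region met 73.4% (72.6 to 74.2) of pregranulosa regions. Counted in bases, 90.5 Mb lay in both lists, which is 58.0% of the 156 Mb in the Sertoli list and 69.7% of the 130 Mb in the pregranulosa list. The excess of Sertoli-only loci was smaller when the widest regions were taken in equal number from each list, 10939, which gave 3754 Sertoli-only and 3406 pregranulosa-only loci. Promoters marked in 1 cell type only then numbered 874 for Sertoli and 807 for pregranulosa cells, against 1094 and 633 with all regions. Sertoli tags numbered 44446456 by the file header, and the depth of the pregranulosa list is unknown. How far depth sets the excess of Sertoli-only loci cannot be told apart from the cell type.

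Loci of 1 cell type were narrower than shared loci and held a smaller share of gene starts. Their median widths were 6531 bp for Sertoli-only and 6830 bp for pregranulosa-only loci, against 12053 bp for shared loci. A lone call window of 5001 bp, the commonest width in the Sertoli list before joining, made up 32.2% and 31.9% of the loci of 1 cell type. A width of 30 kb or more was reached by 815 shared, 37 Sertoli-only and 45 pregranulosa-only loci. A gene start ± 2 kb lay in 48.0% (46.9 to 49.2) of shared loci, 16.0% (15.1 to 17.1) of Sertoli-only loci and 16.9% (15.6 to 18.4) of pregranulosa-only loci. Wider loci meet a start more often, so the bases were counted too, and such windows made up 12.1% of the bases of shared loci, 6.23% of Sertoli-only loci and 6.39% of pregranulosa-only loci, against 3.23% of autosomal bases. Gene bodies took 32.3% and 30.3% of Sertoli-only and pregranulosa-only loci, and intergenic sequence 51.7% and 52.7%. For each of these annotations the intervals of the 2 classes overlapped.

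**Figure D4:**
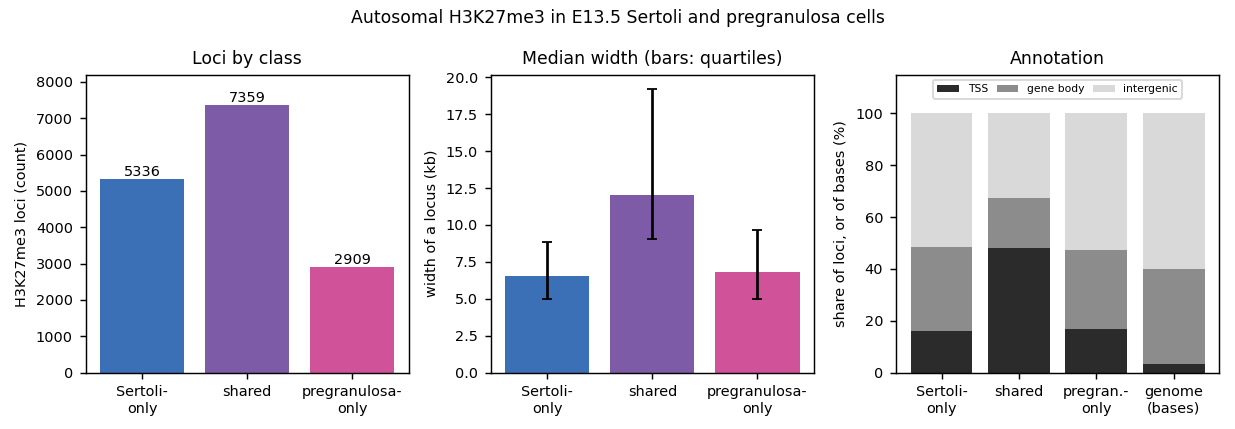
Autosomal H3K27me3 loci by class, as counts (left), median width with quartiles in kb (middle) and share with a gene start ± 2 kb, a gene body or intergenic sequence (right), beside the genome bar, which is a share of bases and not of loci. Shared loci (7359) are the most numerous and widest, and 48.0% of them hold a gene start against 16.0% and 16.9% of the others.

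The 8 widest shared loci with a protein-coding start ran from 155716 to 346218 bp. The widest held the start of Foxf1a, a forkhead gene of mesoderm, with 346218 bp marked in Sertoli and 286986 bp in pregranulosa cells. The HoxA cluster lay in a locus of 194424 bp that held 14 gene starts and was marked over 191902 bp in Sertoli and 193821 bp in pregranulosa cells, and a locus of 172228 bp held Tbx5, a T-box gene of heart and limb. The other 5 held Prdm16 and Actrt2 (298987 bp), Rnf220 (250700 bp), Cdh22 and 1700025C18Rik (187373 bp), Tcf20 and Nfam1 (168605 bp), and Pipox and Sez6 (155716 bp). The widest Sertoli-only loci held the starts of Ccdc85c (87624 bp), Gm1968 (69604 bp) and Timp2 (50576 bp), with Rspo1 the seventh of those with a protein-coding start. The widest pregranulosa-only loci held Tox (55097 bp), the zinc-sensing receptor gene Gpr39 (48300 bp) and Prkce (44414 bp).

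Some genes differed in cover well beyond the promoter window. Zfp423, a zinc finger gene of mesenchyme, had its window fully covered in both cell types but 205627 bp over the gene and 10 kb on either side in Sertoli cells against 37866 bp in pregranulosa cells. The same held for the ephrin receptor gene Ephb2, with 156195 against 22634 bp, for the phosphodiesterase gene Pde10a, with 196885 against 53685 bp, and for the imprinted potassium channel gene Kcnq1, with 165927 against 32646 bp. In the other direction stood Cdh4, a cadherin gene whose window was also fully covered in both, with 77237 bp in Sertoli and 188665 bp in pregranulosa cells. Robo1, an axon guidance receptor gene, had 0 and 119165 bp, Ddah1 had 0 and 84398 bp, and Elmo1, a gene of cell engulfment, had 0 and 74393 bp. At these last 3 genes the promoter also differed, being marked in pregranulosa cells only. These genes were picked for the size of the difference, and long genes lead such an order.

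Within shared loci the marked bases largely coincided. The median share of a shared locus marked in both cell types was 76.9%, with quartiles of 61.6% and 87.3%. The Sertoli bases were at least 2 times the pregranulosa bases at 491 shared loci, and the reverse held at 280. Of the 4090 promoters marked in both, 2965 (72.5%) were covered over the whole window in both, and the start itself lay in a region of Sertoli cells only at 135 and of pregranulosa cells only at 97. Of promoters marked in 1 cell type only, 17.3% of the 1094 Sertoli-only and 15.2% of the 633 pregranulosa-only lay in shared loci, where the other cell type had a region elsewhere in the locus.

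Promoters marked in 1 cell type differed between the cell types in their other marks. H3K4me3 in the same cells was listed at 59.1% (56.2 to 62.1) of the 1094 Sertoli-only promoters and at 85.6% (82.6 to 88.3) of the 633 pregranulosa-only promoters, so the latter were more often bivalent. Promoters marked in both had H3K4me3 at 84.8% in Sertoli and 89.2% in pregranulosa cells, and those marked in neither at 60.1% and 60.7%. Both progenitors had carried H3K27me3 at 21.4% (18.99 to 23.9) of Sertoli-only promoters, 55.3% (51.3 to 59.2) of pregranulosa-only promoters and 85.6% (84.4 to 86.6) of those marked in both. Neither progenitor had carried it at 64.2%, 37.0% and 8.83% of the 3 classes. The E10.5 H3K27me3 lists came from 6470151 tags in the XY and 33185400 tags in the XX progenitor, and the part of that difference was not tested. Counted over loci, 80.3% of Sertoli-only, 76.8% of pregranulosa-only and 23.6% of shared loci overlapped no E10.5 region.

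**Figure D5:**
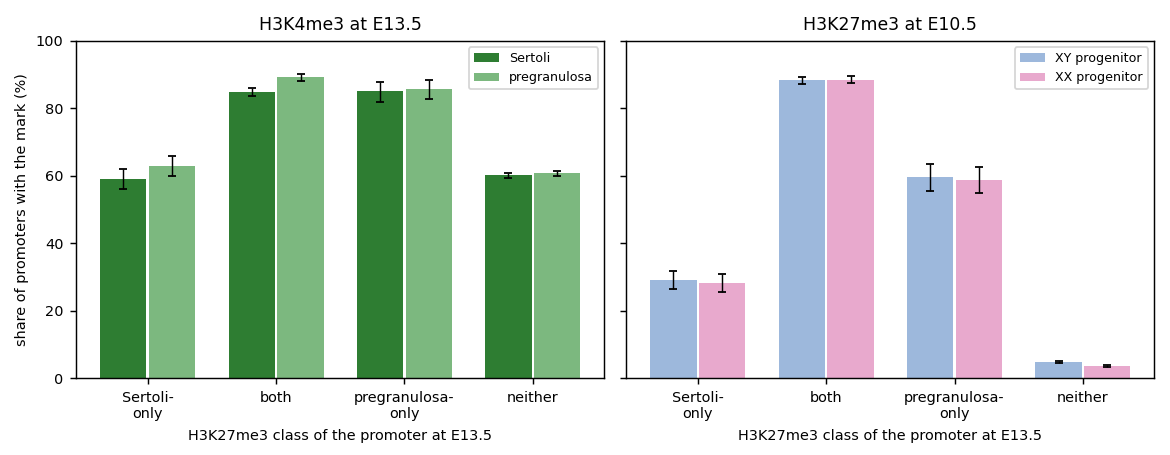
Share of promoters (y axis, percent, with exact 95% binomial intervals) with H3K4me3 at E13.5 (left) and with H3K27me3 at E10.5 (right), by the H3K27me3 class of the promoter at E13.5. H3K4me3 in the marked cell type reaches 59.1% of Sertoli-only and 85.6% of pregranulosa-only promoters, and H3K27me3 at E10.5 is near 29.1% and 59.6% in the XY progenitor.

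The sequence of the classes differed too. Median GC content was 47.8% (quartiles 45.8 and 50.1) in Sertoli-only loci, 47.1% (44.7 and 49.7) in shared loci and 43.9% (41.3 and 46.5) in pregranulosa-only loci, where the autosomes as a whole hold 41.9%. Away from gene starts the medians were 47.6%, 46.6% and 43.4%. At loci with a gene start the ratio of observed to expected CpG had a median of 0.245 in Sertoli-only, 0.291 in shared and 0.342 in pregranulosa-only loci. For promoter windows the same ratio was 0.288 for Sertoli-only, 0.432 for both, 0.451 for pregranulosa-only and 0.346 for unmarked promoters. The number of Sertoli-only loci per pregranulosa-only locus ran from 0.835 on chromosome 3 to 3.31 on chromosome 17. Chromosome 3 had the lowest GC content of the autosomes, 40.5%, and chromosome 17 held 42.7%, while chromosome 11, the highest at 43.8%, had a ratio of 2.70. Base composition therefore moved with the class, and its part in the calls was not tested.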

How the data were processed

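The deposited files are peak lists, 1 per mark and cell population, in which the authors joined 2 replicates. Per the study's methods, reads were aligned to mm9 with Bowtie and peaks were called with HOMER in histone style against H3, and the submitters' processing notes also name Trim Galore and SAMtools. The header of the Sertoli H3K27me3 list gives a peak size of 5000 bp. It also asks for at least 4 times the tags of the control and of the surrounding sequence. The study's methods give a smaller peak size for H3K4me3. The pregranulosa list has no header. Its positions were already joined, while the other H3K27me3 lists hold overlapping windows. The score column of the deposited lists holds the same value in every row, so presence of a mark was the only measure. The values used are the deposited start and end positions. No count, depth per region or replicate value could be used, so no test was run.

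Regions, loci and overlaps were computed in Python 3.11.15 with NumPy 2.4.6 and SciPy 1.17.1, and were tested on simulated intervals and against bedtools 2.31.1. Genes were those of GENCODE M1 on NCBIM37 (mm9), with the first entry used for each of 131 repeated symbols. Autosomes were used because the cell types differ in sex. The gene lists, the members and the rules for named genes were chosen with earlier results of these data known. The rules named every sex-determination gene listed, the 8 widest loci per class that hold a gene start, the 10 genes per direction with the largest cover difference, up to 6 pathway members per direction and 10 sex-specific genes per direction. Of the genes not matched from the Sertoli-specific and pregranulosa-specific lists, 69 and 59 were on sex chromosomes, and 1 gene in both lists was left out. Alternatives were an overlap of 500 bp, the widest 75% of regions, equal numbers of regions, joining across 5 kb, a window of 1 kb and genes of all types. Some members of the gene lists are counted but not reported here by name.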

Additional observations from a re-analysis of the deposited data

Results flagged for a closer look

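H3K27me3 on the X chromosome was outside the comparison and differed between the lists. Regions covered 43.1 Mb of the X chromosome in pregranulosa cells, which was 24.9% of all covered bases of that list. In Sertoli cells they covered 1.95 Mb, or 1.23%. The E10.5 lists showed the same split, with 61.6 Mb (42.8%) in XX progenitor cells and 1.19 Mb (1.31%) in XY progenitor cells. H3K4me3 covered 1.56 to 2.16 Mb of the X chromosome in the 4 populations. These values were marked because they come from regions that the autosomal comparison leaves out. XX cells hold a pair of X chromosomes, and H3K27me3 is known to coat the inactive one. Its part in these values, and the difference itself, were not tested, since each list is a pool.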

How the results depend on the processing

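The lists carry presence only, from a pool of 2 replicates each, so depth limits every absence and differences between replicates are unknown. No paired analysis was possible because each list joins its replicates, and no replicate could be left out for the same reason. Of 106 values under alternative settings, 79 stayed within 1.5 times the reported count or within the interval of the reported share, and 27 moved. Sertoli-only loci outnumbered pregranulosa-only loci in 5 of 5 settings, but with equal numbers of regions the counts came to 3754 and 3406, against 5336 and 2909 as reported, and those of promoters to 874 and 807, against 1094 and 633. The direction in both sex-specific lists held in 6 of 6. The TSS base itself and a distance over 5 kb from the other list were alternatives chosen after seeing the data. The cause of each shift was not tested.

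Loci with a gene start made up 15.0% of Sertoli-only loci with an overlap of 500 bp, and 14.1% with a window of 1 kb. The shares for Sertoli-only, shared and pregranulosa-only loci were 19.995%, 52.6% and 20.4% with the widest 75% of regions, 18.2%, 52.8% and 19.1% after joining across 5 kb, and 21.2%, 53.8% and 21.0% with all genes. With equal numbers of regions they were 17.2% and 19.2% for Sertoli-only and pregranulosa-only loci. Sertoli-specific genes marked in Sertoli cells only fell from 21 to 13 with the window of 1 kb and to 9 with the start itself, and pregranulosa-specific genes marked in pregranulosa cells only from 23 to 14 with the widest 75%. H3K4me3 in the marked cell type was at 24.2%, 28.1% and 29.9% of Sertoli-only loci and 42.4%, 47.2% and 48.2% of pregranulosa-only loci with an overlap of 500 bp, equal numbers and joining, respectively, against 26.0% and 44.4%. Loci with no H3K27me3 at E10.5 were 78.3% of Sertoli-only with the widest 75%. With equal numbers they were 78.5%, 22.0% and 72.3% of Sertoli-only, shared and pregranulosa-only loci, and joining gave 21.7% of shared loci.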
